A study of Drosophila melanogaster with 3 samples.

Results

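Small nuclear RNA (snRNA) genes encode the short non-coding RNAs at the centre of the spliceosome, the machine that removes introns from pre-mRNA. The genes examined were those with the Ensembl biotype snRNA on the major chromosome arms, 32 of the 18164 genes there once transposable elements were left out. They comprised 5 genes for U1, 6 for U2, 3 for U4, 7 for U5, 3 for U6, 4 for the minor spliceosome (U11, U12, U4atac and U6atac) and 4 others (7SKa, 7SKb, U7 and LU). The members therefore reach beyond the spliceosome: 7SK RNA holds the elongation kinase P-TEFb inactive and U7 RNA guides histone mRNA 3′ end formation, so neither is a splicing RNA.

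The occupancy measured was that of CG33213, listed as Boh1 in the annotation, in transgenic flies that stably express it with eGFP at its C terminus. Chromatin immunoprecipitation and sequencing (ChIP-seq) relied on an antibody to GFP (the label's antibody entry names CG33213) and sonicated chromatin from whole embryos of both sexes aged 0 to 24 h. The 3 biological replicates share 1 transgenic line and form 1 group, with no second condition, and the promoter that drives the fusion is not given in the sources used here. Whole embryos mix cell types, so occupancy in few cells and weak occupancy in many cannot be told apart.

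In the major spliceosome U1 recognises the 5′ splice site, U2 pairs with the branch point, U4 escorts U6 in an inactive pairing, U5 holds the exon ends and U6 takes part in the catalytic centre. U11, U12, U4atac and U6atac take the places of U1, U2, U4 and U6 on a rare class of introns. RNA polymerase II transcribes the U1, U2, U4 and U5 genes and RNA polymerase III the U6 genes, yet in Drosophila both kinds are recognised through the same proximal sequence element (PSEA) by the snRNA-activating protein complex, SNAPc. What sets them apart is the second element: a PSEB downstream of the PSEA at polymerase II genes and a TATA box at U6 genes.

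Part of that promoter design is visible in the 80 bases before the transcription start site (TSS) of the 8 genes that had a CG33213-eGFP peak. They are shown so that the binding results can be read against them, with the PSEA core ATTCNCAA and, where present, a TATA word (TATATA or TATAAA) in capitals. Each is written 5′ to 3′ on the strand of the gene from the RefSeq copy of the Release 6 (dm6) genome.
snRNA:U1:21D (chr2L:901655-901734, minus strand): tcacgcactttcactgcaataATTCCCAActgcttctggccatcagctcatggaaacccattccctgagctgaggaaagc
snRNA:U1:95Ca (chr3R:23859631-23859710, minus strand): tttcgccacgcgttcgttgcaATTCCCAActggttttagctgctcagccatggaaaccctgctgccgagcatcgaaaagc
snRNA:U2:34ABb (chr2L:13215759-13215838, plus strand): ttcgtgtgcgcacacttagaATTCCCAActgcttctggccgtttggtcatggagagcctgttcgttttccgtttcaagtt
snRNA:U4:39B (chr2L:21215179-21215258, minus strand): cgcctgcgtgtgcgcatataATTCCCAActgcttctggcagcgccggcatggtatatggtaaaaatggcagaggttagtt
snRNA:U5:63BC (chr3L:3090721-3090800, plus strand): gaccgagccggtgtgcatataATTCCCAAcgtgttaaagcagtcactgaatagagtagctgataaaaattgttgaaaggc
snRNA:U6:96Ab (chr3R:24556612-24556691, plus strand): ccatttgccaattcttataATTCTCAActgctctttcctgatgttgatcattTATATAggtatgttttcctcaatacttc
snRNA:U6:96Ac (chr3R:24557135-24557214, plus strand): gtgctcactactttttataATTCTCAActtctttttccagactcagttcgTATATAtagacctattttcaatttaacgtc
snRNA:7SKa (chr3R:7474997-7475076, minus strand): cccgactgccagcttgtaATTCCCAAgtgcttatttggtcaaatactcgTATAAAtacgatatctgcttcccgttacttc

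The next 7 sequences belong to genes without such a peak and are shown in the same way for comparison. The core is present in 6 of them and absent from 7SKb. The first 3 had weaker peaks in every replicate, and the others had none within 500 bp of the TSS in any replicate.
snRNA:U1:82Eb (chr3R:4948097-4948176, minus strand): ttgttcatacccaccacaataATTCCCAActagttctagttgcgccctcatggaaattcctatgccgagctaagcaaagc
snRNA:U2:34ABa (chr2L:13212117-13212196, minus strand): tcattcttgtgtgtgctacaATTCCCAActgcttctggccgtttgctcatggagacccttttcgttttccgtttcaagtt
snRNA:U4:38AB (chr2L:19810654-19810733, plus strand): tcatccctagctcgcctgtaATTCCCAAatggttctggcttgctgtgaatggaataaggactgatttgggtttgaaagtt
snRNA:U1:95Cc (chr3R:23826254-23826333, plus strand): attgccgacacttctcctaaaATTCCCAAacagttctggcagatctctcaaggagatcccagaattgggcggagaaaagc
snRNA:U6:96Aa (chr3R:24556008-24556087, plus strand): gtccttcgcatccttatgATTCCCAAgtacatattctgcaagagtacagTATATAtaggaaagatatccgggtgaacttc
snRNA:U6atac (chr2L:8389644-8389723, plus strand): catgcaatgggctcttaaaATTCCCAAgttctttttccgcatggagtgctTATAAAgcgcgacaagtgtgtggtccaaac
snRNA:7SKb (chr3R:23432789-23432868, plus strand): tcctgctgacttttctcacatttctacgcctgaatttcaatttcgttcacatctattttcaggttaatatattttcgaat

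The core ATTCNCAA began 50 to 75 bases before the TSS on the strand of the gene in 31 of the 32 snRNA genes, against 85 of all 18164 genes (0.468%). Only 7SKb lacked it among the 32. The form ATTCCCAA was present in 26 of them and ATTCTCAA in the other 5, which were U6:96Ab, U6:96Ac, U4:25F, U2:38ABb and LU. Its first base lay at position −59 in all 5 U1 genes, at −60 or −59 in the 6 U2 genes, at −62 or −61 in the 3 U6 genes and as far out as −65 in U4:25F. A TATA word beginning 15 to 45 bases before the TSS was present in the 3 U6 genes, U6atac and 7SKa, and in no gene for U1, U2, U4 or U5. Over all genes 3.80% had TATATA and 7.79% had TATAAA there. The word CATGGA of the PSEB, within the same stretch, was found in 7 members and in 0.435% of all genes. Of these members U1:21D, U1:95Ca and U2:34ABb are among the genes with a CG33213-eGFP peak described above, and U1:82Eb, U2:34ABa, U7 and U6atac are not. No U4 or U5 gene had the word. In U6atac, which also has a TATA word, it began at −41, against −33 to −31 in the others. These words and stretches were chosen after the promoter sequences had been read, and a match is a description of the letters only.

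A gene was called bound when the summit of a peak of the optimal list lay within 500 bp of its TSS. That list held 4417 peaks, cut by the irreproducible discovery rate (IDR) over all replicates. Of the 32 snRNA genes 8 (25.0%) were bound, U1:21D, U1:95Ca, U2:34ABb, U4:39B, U5:63BC, U6:96Ab, U6:96Ac and 7SKa. This was close to the background of 20.7% of all genes, and of 16.0% of genes with 1 annotated TSS, so the count alone does not set snRNA genes apart. It equalled the 25.0% of protein-coding genes. The median distance from an snRNA TSS to the nearest optimal summit was 6851 bp, against 6736.5 bp over all genes.

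The snRNA genes stood further from the background where no coding promoter lay nearby. Non-coding genes as a whole were bound in 20.9% of cases when a protein-coding TSS lay within 500 bp and in 3.88% when none did. Of the 29 snRNA genes with no coding TSS within 500 bp, 7 (24.1%) were bound. Among the tRNA genes, which RNA polymerase III transcribes, 6 of 258 such genes (2.33%) were bound, and among the snoRNA genes, whose products guide RNA modification, 12 of 240. These are counts of genes in 1 group of samples, with no contrast to test, and several snRNA genes are neighbours. When all 32 snRNA genes were counted as loci, with genes within 5000 bp joined, 7 of 21 were bound. No share over all genes joined in the same way is given, so this count has no background beside it.

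**Figure D1:**
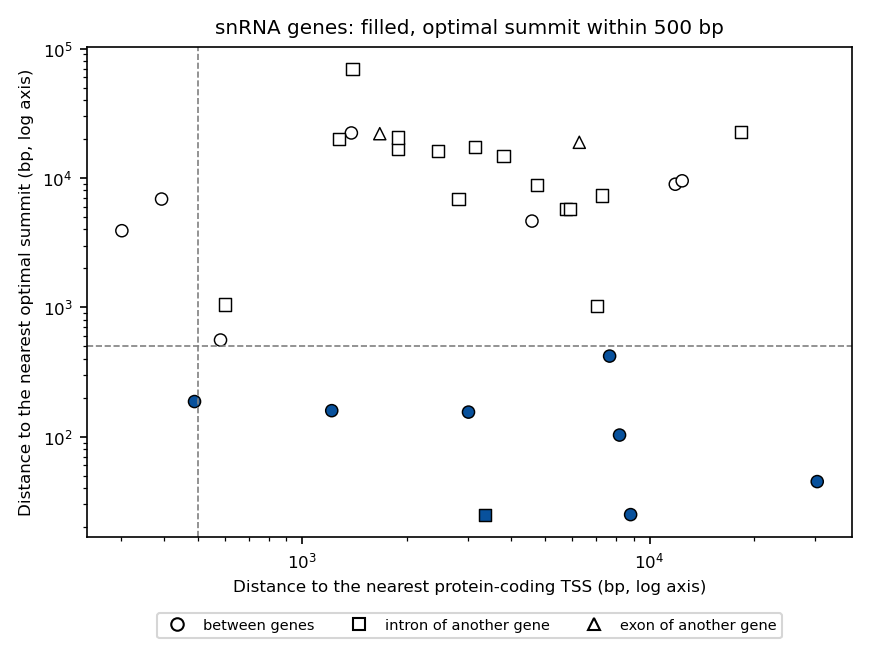
Distance from each of the 32 snRNA TSSs to the nearest protein-coding TSS (x axis, bp, log scale) and to the nearest optimal summit (y axis, bp, log scale), with dashed lines at 500 bp, filled symbols for bound genes and shapes for genes between other genes or inside an intron or exon. Of the 8 filled symbols, 7 lie to the right of the vertical line, and their coding neighbours begin 1215 to 30422 bp away.

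The 8 bound genes were served by 7 peaks, because U6:96Ab and U6:96Ac shared one. For all 7 summits the nearest TSS of any gene was that of an snRNA gene, 25 to 187 bp away, while the nearest protein-coding TSS was 676 to 30467 bp away. By signal, the caller's height for each peak, the bound snRNA genes ranked 797 to 4086 of 4417 with a median of 1156.5, where 1 is the strongest. The strongest optimal peak at each of the 3759 bound genes had a median rank of 2011. Both medians are over genes, so the shared U6 peak, at rank 797, enters the first for each of its 2 genes.

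Replicates were compared through their own relaxed lists of 30000 peaks each, which also hold background. A relaxed summit within 500 bp of the TSS was present in all 3 replicates at 11 snRNA genes (34.4%, against 36.3% of all genes) and in at least 1 replicate at 23 (71.9%, against 63.1%). The number of snRNA genes with such a summit was 19, 16 and 16 in replicates 1, 2 and 3, or 17 ± 1.73 (SD, n = 3). When only the 4417 strongest peaks of each replicate were kept, it was 7 in each replicate, the seventh being U1:82Eb in replicate 1, 7SKa in replicate 2 and U5:63BC in replicate 3. In all 3 replicates such a strong summit stood at 6 snRNA genes (18.8%, against 14.3% of all genes): U1:21D, U1:95Ca, U2:34ABb, U4:39B, U6:96Ab and U6:96Ac. Of the tRNA genes 3.10% reached this, and of the snoRNA genes 5.58%. Relaxed summits were therefore about as common at snRNA genes as elsewhere, and their presence alone was read as no sign of occupancy.

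**Figure D2:**
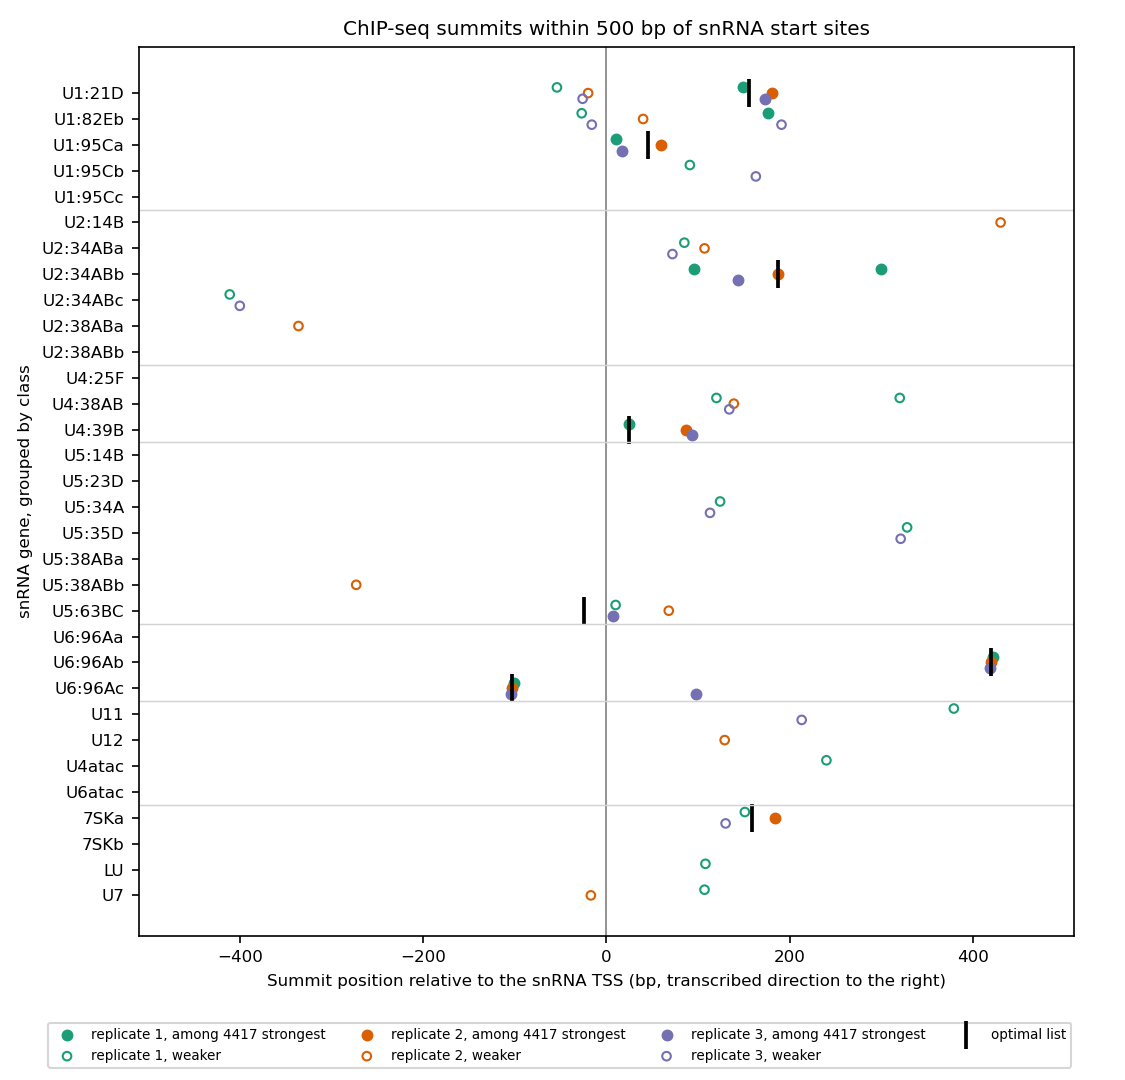
Position of every summit within 500 bp of the TSS (x axis, bp, transcription to the right) for each of the 32 snRNA genes (y axis, grouped by class), with black bars for the optimal list, filled circles for the 4417 strongest peaks of a replicate and open circles for its weaker ones. The strong summits of the 3 replicates fall close together at U1:21D, U1:95Ca, U4:39B and the U6 pair, and open circles are scattered over most other genes.

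U1 had 2 bound genes of 5. U1:95Ca (chr3R:23859467-23859630, minus strand) carried a peak at chr3R:23859393-23859776 with its summit 45 bp downstream of the TSS, at rank 1032. The strongest summits within 500 bp ranked 634, 1686 and 1543 in replicates 1, 2 and 3. Its nearest coding TSS, of Pli, was 30422 bp away, the greatest such distance among the 32 genes. U1:21D (chr2L:901491-901654, minus strand) had its summit 155 bp downstream, near the end of the 164 nt gene, at rank 2564, and ranks of 1785, 4182 and 2386 in the replicates. All of these lay among the 4417 strongest of their list. The optimal list was itself made from these 3 replicates, so this is no separate support for the 2 peaks.

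U1:82Eb was the closest miss of the class. Its strongest summits ranked 3755, 12502 and 7182 in the replicates and 5291 in the relaxed list of the pooled replicates, below the 4417 that the optimal list takes. U1:95Cb, inside an intron of CG34355, had weak summits in replicates 1 and 3 only, at ranks 12417 and 5532. U1:95Cc, inside the same gene, had none in any replicate. The RNAs of U1:21D, U1:95Ca and U1:95Cb are identical in all 164 positions, and U1:82Eb differs from them at 2. The 80 bases before the TSS were 53.8% to 63.8% identical between U1 genes.

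U2 had 1 bound gene of 6, and its peak was the most uneven across replicates of the 4 peaks of highest signal. U2:34ABb (chr2L:13215839-13216030, plus strand) had its summit 187 bp downstream of the TSS, within the last bases of the 192 nt gene, at rank 831. The strongest summits within 500 bp ranked 292 in replicate 1, 3335 in replicate 2 and 1140 in replicate 3. It is the bound member with the closest coding TSS, that of kek4, 489 bp upstream. The summit itself lay 676 bp from kek4. U2:34ABa, whose RNA differs from that of U2:34ABb at 1 position and whose 80 upstream bases are 78.8% identical, had weak summits in all 3 replicates at ranks 12171, 10071 and 12022. It was not bound, although the TSS of CG15482 lay 302 bp away.

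The other U2 genes had weak or no summits. U2:34ABc had summits in replicates 1 and 3 (ranks 7736 and 14221) that lay far upstream of its TSS, at positions −411 and −400. They were the same summits as those 124 and 113 bp downstream of the TSS of U5:34A, its divergent neighbour. U2:38ABa and U2:14B each had 1 weak summit, both in replicate 2, at ranks 14464 and 17935. The summit of U2:38ABa, at position −336, was the same as that of U5:38ABb, its divergent neighbour, at −273. U2:38ABb had none.

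U4 had 1 bound gene of 3. U4:39B (chr2L:21215036-21215178, minus strand) carried a peak 25 bp downstream of its TSS at rank 1281, with ranks of 667, 2549 and 1987 in the replicates, all among the strongest 4417. It lies in an intron of Atg18b, an autophagy gene, and was the only bound member inside another gene. The nearest coding TSS, of CG8679, was 3366 bp away. U4:38AB had relaxed summits in every replicate, at ranks 8027, 19736 and 6618, and U4:25F had none. The summits of U4:38AB lay 120, 139 and 134 bp downstream of the TSS, a spread of under 20 bp between lists in which they ranked low.

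U5 had 1 bound gene of 7, and its peak was the weakest of the 7. U5:63BC (chr3L:3090801-3090923, plus strand) had its optimal summit 25 bp upstream of the TSS at rank 4086. The replicates disagreed on its strength, with the strongest summits at ranks 5073, 18354 and 1836, so that only replicate 3 placed it among the strongest 4417. The nearest coding TSS, of PAN3, was 8823 bp away. U5:35D lay just outside the threshold, with an optimal summit 559 bp downstream of its TSS at rank 2799. The TSS of Mtr4, which encodes an RNA helicase of the exosome pathway, was 581 bp away on the other side, upstream of U5:35D. U5:35D also had weak summits within 500 bp in replicates 1 and 3, at ranks 27376 and 14077. U5:34A and U5:38ABb had weak summits in 2 replicates and 1 replicate, and U5:14B, U5:23D and U5:38ABa had none.

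U6 had 2 bound genes of 3 through 1 peak, the strongest at any snRNA gene. The U6 genes lie in tandem on 3R, and the peak at chr3R:24557016-24557163 had its summit 103 bp upstream of the TSS of U6:96Ac (chr3R:24557215-24557321, plus strand). The same summit lay 420 bp downstream of the TSS of U6:96Ab (chr3R:24556692-24556798, plus strand), beyond the end of that 107 nt gene, and this was the bound call nearest to the threshold. Its rank was 797, and 896, 1182 and 675 in the replicates, the narrowest range of ranks among the snRNA peaks. Its interval was 148 bp wide, while the other 6 were 384 bp wide, the median of the optimal list. U6:96Aa, inside an intron of Esyt2, was 1024 bp from this summit and had none within 500 bp in any replicate. The 3 U6 RNAs are identical, and their 80 upstream bases were 31.3% to 62.5% identical.

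**Figure D3:**
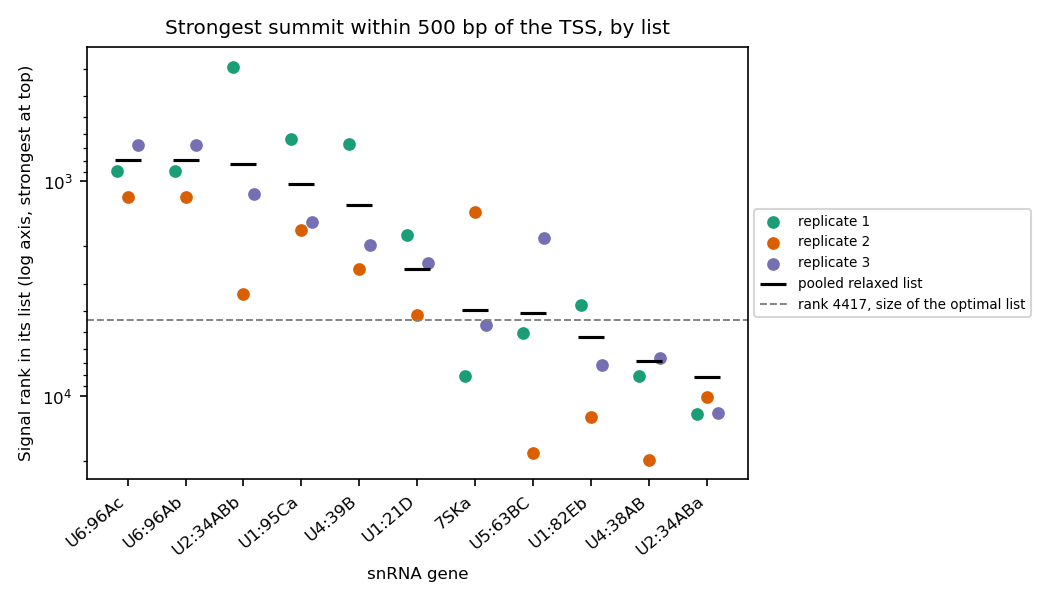
Signal rank of the strongest summit within 500 bp of the TSS (y axis, log scale, strongest at the top) for the 11 snRNA genes with a relaxed summit in all 3 replicates (x axis), with coloured circles for replicates, black bars for the pooled relaxed list and a dashed line at rank 4417. The 6 genes on the left lie above the line in every replicate, 7SKa and U5:63BC cross it, and U1:82Eb, U4:38AB and U2:34ABa lie below it in the pooled list.

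None of the 4 minor spliceosome genes was bound, and none had a relaxed summit in all 3 replicates. U11, in an intron of Fie, had summits in replicates 1 and 3 at ranks 23884 and 10741, and an optimal summit stood 1053 bp away. U12 had 1 summit in replicate 2 at rank 8369 and U4atac 1 in replicate 1 at rank 27866. U6atac had none, although the TSS of CG42819 lay 393 bp away. All 4 genes have the PSEA core, at positions −62 to −56. With only 4 genes, and 20.7% of all genes bound, this was not read as a difference from the major classes.

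Among the remaining genes 7SKa was bound. The peak at 7SKa (chr3R:7474553-7474996, minus strand) had its summit 159 bp downstream of the TSS, inside the 444 nt gene, at rank 3981. The ranks were 8033, 1383 and 4664 in the replicates, so that only replicate 2 placed it among the strongest 4417. The nearest coding TSS, of CG1142, was 1215 bp away. 7SKb, the member without the PSEA core, had no summit in any replicate and was the farthest of all from an optimal summit, at 69177 bp. U7 had weak summits in replicates 1 and 2 (ranks 23533 and 29098), and LU in replicate 1 (rank 23555).

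**Figure D4:**
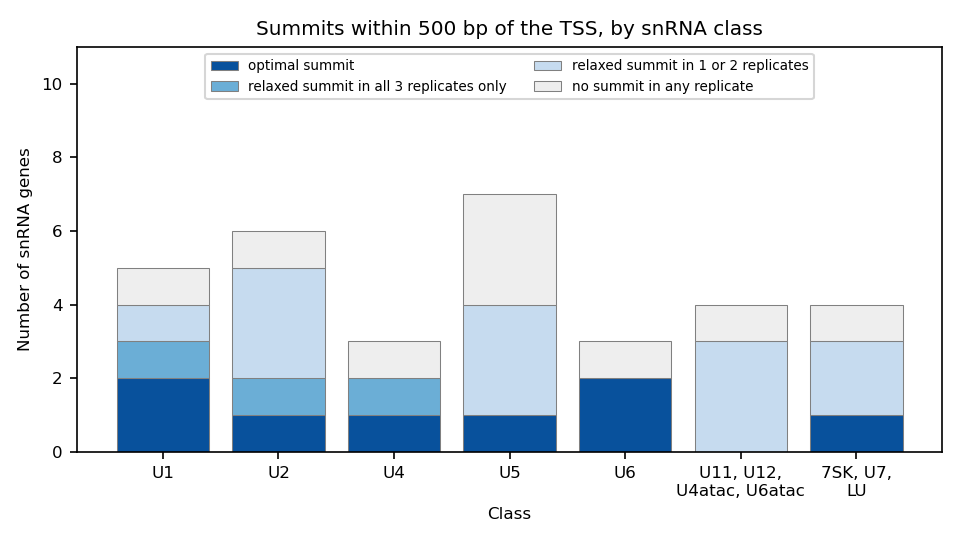
Number of snRNA genes (y axis) in each class (x axis), divided into those with an optimal summit within 500 bp of the TSS, those with a relaxed summit in all 3 replicates but no optimal one, those with a relaxed summit in 1 or 2 replicates and those with none. Bound genes number 2 of 5 for U1, 1 of 6 for U2, 1 of 3 for U4, 1 of 7 for U5, 2 of 3 for U6 and 0 of 4 for the minor class.

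Most bound genes lay between other genes, a setting that the calling rule did not use. Of the 14 snRNA genes between other genes 7 were bound, and of the 18 inside another gene 1 (5.56%), 16 of the 18 being in introns. With the 3 members that have a coding TSS within 500 bp left out, the counts were 6 of 11 and 1 of 18, and over all non-coding genes without such a TSS the shares were 4.45% and 3.36%. The 8 snRNA genes in divergent pairs, with a U2 and a U5 gene transcribed away from each other 287 to 609 bp apart, included no bound gene and none with a relaxed summit in every replicate. None of these 8 has a coding TSS within 500 bp, and 3.88% of such non-coding genes were bound, so their count of bound genes is near the background. A relaxed summit in every replicate was present at 36.3% of all genes and at 11 of the other 24 snRNA genes. Of the 8, 5 also lie inside another gene, against 13 of the other 24, which held all 8 bound genes. The 4 pairs take up much of the U2 and U5 classes, and some of them hold much repeated sequence, as described below. Class, arrangement, place inside a gene and repeated sequence therefore cannot be told apart here.

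Summits also lay on a different side of the TSS from most. Of the 8 bound snRNA genes 6 had their summit downstream of the TSS, or 5 of 7 with a median of 45 bp downstream when each summit was given only to its nearest TSS. Over the 2288 bound genes with 1 TSS, 11.4% had it downstream, and the median position was −86. At U1:21D each replicate also had a weaker summit upstream, at −54, −20 and −26. U5:63BC counts as upstream by its optimal summit, while its summits in the replicates lay 10, 68 and 7 bp downstream. The transcribed parts of U1:21D, U1:95Ca and U2:34ABb hold no 31-base word found only once in the genome. What this does to summit position was not tested. The PSEA core lay outside the 50 bases on each side of most of the 7 optimal summits. It was present there at 2 of 7, U5:63BC and the shared U6 summit, and at 2.17% of all 4417 optimal summits. The DRE word TATCGATA, the site of the factor DREF, was found at 4.84% of all optimal summits and at 0 of the 7. It was also absent from the 250 bases before to 50 bases after the TSS of all 32 snRNA genes, on either strand, while 7.51% of all genes had it.

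The sequence under 4 of the summits shows where they fall, with the summit base in capitals. At U5:63BC and U6:96Ac the stretch includes the lower-case core, attcccaa and attctcaa, whereas at U1:95Ca and U2:34ABb it is largely or in part the transcribed RNA. Each runs 50 bases to either side of the summit on the strand of the gene, from the same dm6 sequence, and the U6 stretch is given under the name U6:96Ab.
snRNA:U1:95Ca (chr3R:23859535-23859635, minus strand): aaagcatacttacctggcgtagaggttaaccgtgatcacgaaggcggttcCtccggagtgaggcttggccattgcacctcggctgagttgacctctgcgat
snRNA:U2:34ABb (chr2L:13215976-13216076, plus strand): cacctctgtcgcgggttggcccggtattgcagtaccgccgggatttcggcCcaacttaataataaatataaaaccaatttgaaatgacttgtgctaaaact
snRNA:U5:63BC (chr3L:3090726-3090826, plus strand): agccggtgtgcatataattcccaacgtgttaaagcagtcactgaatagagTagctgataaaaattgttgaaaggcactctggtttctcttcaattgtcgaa
snRNA:U6:96Ab (chr3R:24557062-24557162, plus strand): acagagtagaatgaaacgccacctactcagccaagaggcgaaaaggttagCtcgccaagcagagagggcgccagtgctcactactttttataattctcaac

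Outside the snRNA genes, with all biotypes pooled, the share of bound genes among those with the core at the same place was near that of all genes. Of the 54 other genes with ATTCNCAA beginning 50 to 75 bases before the TSS, 11 (20.4%) were bound, which is near the 20.7% of all genes. Of these 11, 8 were protein-coding (among 19, or 42.1%, against 25.0% of all protein-coding genes). A further 2 were snoRNA genes (among 6, against 8.18% of all snoRNA genes), including U3:9B, a gene for the U3 RNA of ribosomal RNA processing. The last was a long non-coding RNA gene (1 among 21 genes of biotype ncRNA). Protein-coding genes made up 19 of the 54 but 13945 of all 18164 genes, so the pooled shares compare unlike mixes of biotypes. Within the snRNA genes all 8 bound and 23 of 24 unbound members had the core, so its presence did not separate them.

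Copies of snRNA genes limit where reads can be placed, and the share of 31-base words found once in the genome was taken as a measure of this. Within 500 bp of the TSS the median share was 92.0% over the 32 snRNA genes, 88.3% over the bound and 92.8% over the unbound ones, against 100% over all genes. Among the 32 this share was lowest at U2:38ABa (45.4%), U2:34ABc (46.9%), U2:38ABb (48.9%) and U5:34A (72.7%). These genes are unbound and lie in the divergent pairs, whose other members had 82.3% to 94.0%. The transcribed part had no unique word at U1:21D, U1:95Ca, U1:95Cb, U2:34ABb, U2:34ABc, U2:38ABa and the 3 U6 genes. The 250 bases upstream were unique throughout at 29 members, the exceptions being U2:14B (97.7%), U2:38ABa (86.8%) and U2:38ABb (89.1%). Inside the peaks themselves the unique share was 52.5% at U2:34ABb, 58.5% at U1:95Ca, 59.6% at U1:21D, 82.8% at U5:63BC and 83.3% at U4:39B. It was 100% at 7SKa and at the shared U6 peak. Of all optimal peaks 0.974% had a share under 90%, against 5 of these 7. How reads with several possible positions were treated is not given in the sources used here, and the part of repeated sequence in these peaks was not tested. The U6 peak lies wholly in unique sequence between copies whose transcribed parts are not unique.

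**Figure D5:**
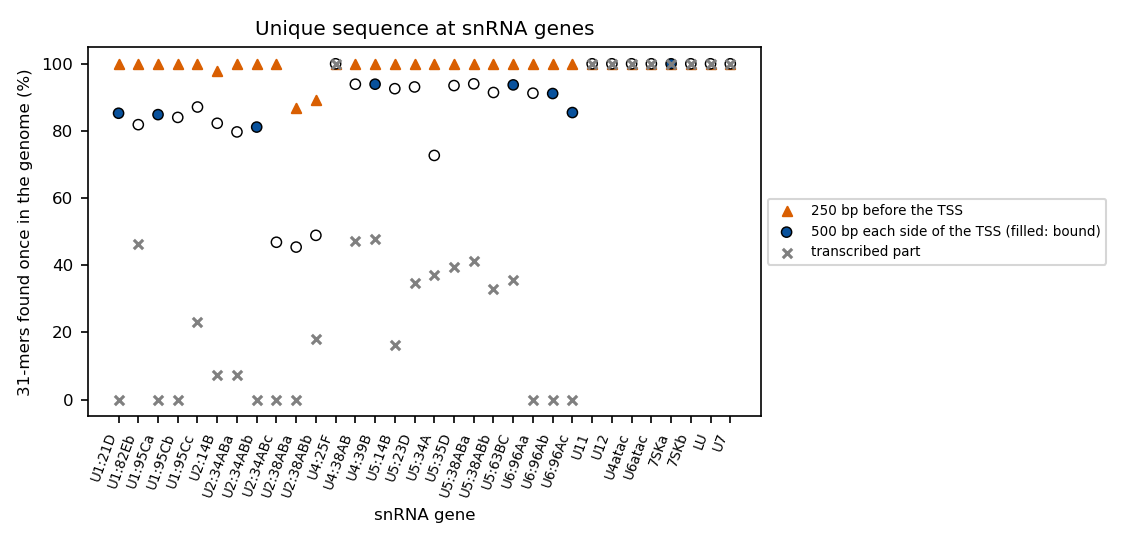
Share of 31-base words found once in the genome (y axis, %) for each snRNA gene (x axis), over the 500 bp on each side of the TSS (circles, filled when bound), the 250 bp before the TSS (triangles) and the transcribed part (crosses). Crosses are at 0% for 9 genes of U1, U2 and U6, while triangles stay between 86.8% and 100%.

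The protein-coding genes that make and process snRNAs were examined as a list of 64 genes matched to the annotation, of which 28 (43.8%) were bound, against 25.0% of protein-coding genes. The 3 SNAPc genes, whose products bind the PSEA, were all unbound. Pbp95 was a near miss, with an optimal summit 519 bp away and summits within 500 bp at ranks 18349, 2596 and 2041 in the replicates. Of 7 genes for general factors that act at snRNA promoters 5 were bound. They were Bdp1 (rank 91) and Brf (rank 286), subunits of the polymerase III factor TFIIIB, TfIIA-S (rank 252), TfIIA-L (rank 1292) and TfIIB (rank 2871). Bdp1 ranked 75, 75 and 122 in the replicates, stronger than any snRNA gene.

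The Integrator complex, which cleaves the 3′ ends of polymerase II snRNAs, had 8 of 14 genes bound (57.1%, against 25.0% of protein-coding genes). These were IntS1, IntS3, omd (the IntS5 subunit), IntS6, IntS8, IntS9, IntS10 and IntS11, the last of which is the endonuclease. IntS3 was the strongest at rank 428, with 843, 294 and 416 in the replicates. Of 9 genes for pause release and the little elongation complex 5 were bound (55.6%). Among these Hexim (rank 3884), Larp7 (rank 2297) and bin3 (rank 1540) encode proteins of the 7SK particle, CycT (rank 3997) the cyclin of P-TEFb and Su(Tpl) (rank 2197) the elongation factor Ell.

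Cap binding and export had 2 of 7 genes bound, or 28.6% (Ars2 and emb, the exportin gene, at rank 488). The SMN complex and Sm assembly had 3 of 9, or 33.3% (Smn, Gem2 and icln). Both shares are near the 25.0% of protein-coding genes and were not read as a result. The Lsm ring and U6 processing, where 7 further listed genes were not matched, had 3 of 5 (LSm7, La, whose product binds the 3′ end of polymerase III transcripts, and CG7544, matched as Mettl16). The list was drawn up with results of these data already known, so its share of 43.8% is a description.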

How the data were processed

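CG33213-eGFP ChIP-seq from 3 biological replicates of 1 group was analysed from peak lists in narrowPeak format on dm6. Per the file lists deposited with each library, the authors made a relaxed list (peaks plus background) per replicate against a control, a similar list from pooled reads, and the optimal list by IDR. No aligner, peak caller, IDR cutoff or treatment of repeated sequence is named in these sources, and the control was not analysed here. The signal of each peak, deposited by the authors, differs in scale between lists and was used only to rank peaks within a list. The −log10 q deposited by the authors was at most 3.90 in the optimal list and was not used further. Peak starts, ends and summit offsets are other deposited values and were used as positions (column 2 plus column 10). The lists hold no read counts, so the depth is unknown and no counting interval is given.

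Members were the genes of biotype snRNA in Ensembl BDGP6.54 (release 115), classed by symbol. A summit counted within 500 bp of any TSS of a gene. A replicate was taken to hold a strong peak when it lay among its 4417 strongest, and an optimal summit was matched to a replicate within 150 bp for the alternatives. Words were searched on the dm6 sequence, and uniqueness was counted with 31-base words on both strands. Analyses used Python 3.11.15, numpy 2.4.6 and pandas 2.3.3, and the search for nearest summits was tested on simulated data. No test was made, because the design holds no contrast. Every bound member, every member with a relaxed summit and the bound genes of the pathway list were named, except that the genes of 1 group of that list are not reported here. Of the pathway symbols listed, 8 were not matched and 7 were matched through a synonym. Members, lists and words were chosen with earlier results of these data known. Alternatives changed the distance, the peaks used, the assignment of summits, the counting of loci and the replicates.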

Additional observations from a re-analysis of the deposited data

How the results depend on the processing

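The count of 8 bound snRNA genes stayed between 6 and 9 under 9 of the 10 alternatives and fell to 5 with the 50% of optimal peaks of higher signal. Among these 9 is the count of loci, 7 of 21, which is not a count of genes. The count of genes was 7 with 250 bp, when 17.3% of all genes were bound, 9 with 1000 bp (24.2%), and 6 when the peak had to cover the TSS. No share of all genes is given for the alternatives other than these distances, so those counts have no background beside them. Leaving a replicate out changed only the matching, because the optimal list still came from all 3 replicates. Requiring a match in both other replicates gave 6 whichever replicate was left out. The reason is that U5:63BC and 7SKa were each among the strongest 4417 in 1 replicate only. The requirement took U5 from 1 bound gene to 0, and the class of 7SK, U7 and LU likewise from 1 to 0, under each omission. At 1000 bp U5 had 2, through U5:35D. U6 fell from 2 to 1 with 250 bp and with each summit given only to its nearest TSS, since U6:96Ab was bound through the summit upstream of U6:96Ac, and to 0 when the peak had to cover the TSS. With the higher-signal peaks U1 fell from 2 to 1, and U5 and the class of 7SK from 1 to 0; these 2 were also 0 among summits found in all 3 replicates. These class counts for covered TSSs, higher-signal peaks and all 3 replicates were added after seeing the data. The counts for U2, U4 and the minor class were the same under the alternatives run for classes. The 11 genes with a relaxed summit in every replicate became 6 with the strongest peaks only, and stayed between 10 and 16 otherwise. The median distance was 9048.5 bp with the higher-signal peaks and 5779 bp over loci. No paired analysis was possible because there is 1 group. Limits are the unknown depth and treatment of repeated sequence, the small classes and the control not analysed here.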
